A study of Mus musculus with 80 samples.

Results

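The genes described here encode 36 proteins of blood clotting and complement that circulate in plasma. They were taken by symbol from a list of named factors, and all 36 were found among the 78275 genes of the deposited table of raw counts. All 36 also passed the filter on low counts, which kept 21187 genes for testing. Of the members, 18 belong to coagulation and fibrinolysis and 18 to complement.

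Both systems are cascades in which one plasma protease cuts and activates the next, and hepatocytes make most of their components. In coagulation, tissue factor with factor VII, or the contact system with factors XII and XI, starts a chain that ends in thrombin, which turns fibrinogen into fibrin; antithrombin, heparin cofactor and the protein C system restrain it, and plasmin dissolves the clot. Complement starts on antibodies (classical pathway), on microbial sugars (lectin pathway) or by slow spontaneous turnover (alternative pathway). All of these routes converge on the cleavage of C3, after which the terminal components assemble into a pore, the membrane attack complex. Many of these genes respond to inflammation as acute-phase genes of the liver.

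The livers came from male and female C57BL/6J mice, an inbred laboratory strain, aged 8 to 12 weeks when purchased and kept on standard chow. After a light and dark cycle the mice were placed in constant darkness, and control mice kept their food while fasted mice lost it at circadian time (CT) 10, where CT counts hours from the start of the subjective day. Centres of the left lobe were taken every 4 h from CT8 to CT44, from 2 males and 2 females of each treatment at each of the 10 times, which gave 80 libraries and 40 for each treatment. At CT8 the mice later fasted still had food, and from CT12 to CT44 they had been without it for 2 to 34 h. Each library is 1 mouse, and treatment and sex were read from the library titles. For treatment the titles differ from the other labels in 40 libraries, and for sex in 40. The count columns were matched to the titles by their headers, which name treatment, time and sex. Fgf21 and Srebf1 served as checks of the treatment labels. By the titles, their log2 differences (fasted minus control, ± SE, mean of CT12 to CT44) were 3.95 ± 0.25 and -3.13 ± 0.097. The X-inactivation transcript Xist and the Y-linked Ddx3y put all 80 libraries in the sex that the title gives.

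The libraries held 25534901 to 59927771 counts over all genes, and the median library 42303883. One library, control CT8 female 2, held 31.3% of its counts in the ribosomal row Rn18s-rs5, against 0.0577% to 4.88% in the others, and of its group of 4 it had the lowest CPM (counts scaled to the size of the library by TMM) in 29 of the 36 genes. Another, fasted CT40 female 2, was the lowest of its group in 28 of the 36 genes, with 26.8 CPM of Klkb1 and 155 CPM of Serpind1 against 97.9 to 131 CPM and 391 to 454 CPM in the other 3 libraries. It was the highest in 5 genes, with 227 CPM of Pros1 against 99.8 to 124 CPM. Results that rest on these libraries are also given without them; leaving out the second was an alternative chosen after seeing the data. The 6 hepatocyte markers, among them albumin, summed to 77981 to 127793 CPM in control and 90014 to 146845 CPM in fasted libraries from CT12 to CT44. The 5 markers of Kupffer cells, the macrophages of the liver, summed to 162 to 600.2 CPM in control and 107 to 350.0 CPM in fasted libraries over the same times, and all 5 passed the filter on low counts. In bulk tissue, fewer cells of a type and less RNA per cell cannot be told apart.

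These transcripts are abundant. Together the 36 genes took 4.26% ± 0.529 (SD, n = 36) of all counts in control libraries and 3.71% ± 0.518 (n = 36) in fasted ones from CT12 to CT44. Per kilobase of exon in control liver, the highest was C3, the protein on which the complement routes converge, at 2027 ± 539 CPM per kb (mean ± SD over 36 libraries). Next came the fibrinogen chains Fga, Fgg and Fgb, at 1272 ± 306, 1221 ± 279.8 and 975 ± 195 CPM per kb. Vtn, which encodes vitronectin, had 846 ± 95.0 CPM per kb and Plg, the plasminogen gene, 673 ± 56.3 CPM per kb. The spreads of the 3 fibrinogen chains overlap with each other, and that of C3 overlaps with those of Fga and Fgg. At the low end stood Pros1 with 15.1 ± 2.87 CPM per kb, then C2 with 7.01 ± 1.90 and Cfb with 2.97 ± 0.415 CPM per kb. Exons of the readthrough gene Gm20547 cover 79.5% of the exon length of Cfb and 42.8% of that of C2, so reads that fit both genes may be missing from these rows. Gm20547 itself had at most 3 counts in a library.

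Without food, complement transcripts fell together while coagulation transcripts split. In the mean of CT12 to CT44, 26 of the 36 members fell and 4 rose (edgeR quasi-likelihood test, Benjamini-Hochberg adjusted p under 0.05). Over all genes tested, 32.9% fell and 29.5% rose, so the share of members that fell lies above that background and the share that rose below it. In complement 16 of 18 members fell and 0 rose; limma and DESeq2 also called 0 of them higher, and 0 were higher at an unadjusted p under 0.05. In coagulation 10 of 18 fell and 4 rose. The median log2 difference, fasted minus control, was -0.40 over the complement members and -0.086 over the coagulation members, against -0.020 over all genes tested. With either of the libraries that stand apart left out, 26 members fell and 4 rose. Of the marker lists, 4 of 6 hepatocyte genes rose and 2 fell, 4 of 5 Kupffer cell genes fell, 2 of 5 sinusoidal endothelial genes rose and 2 fell, 1 of 4 stellate cell genes rose and 3 fell, 3 of 4 bile duct genes fell and 1 of 5 blood cell genes fell. Their part in the fall of these genes was not tested.

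**Figure D1:**
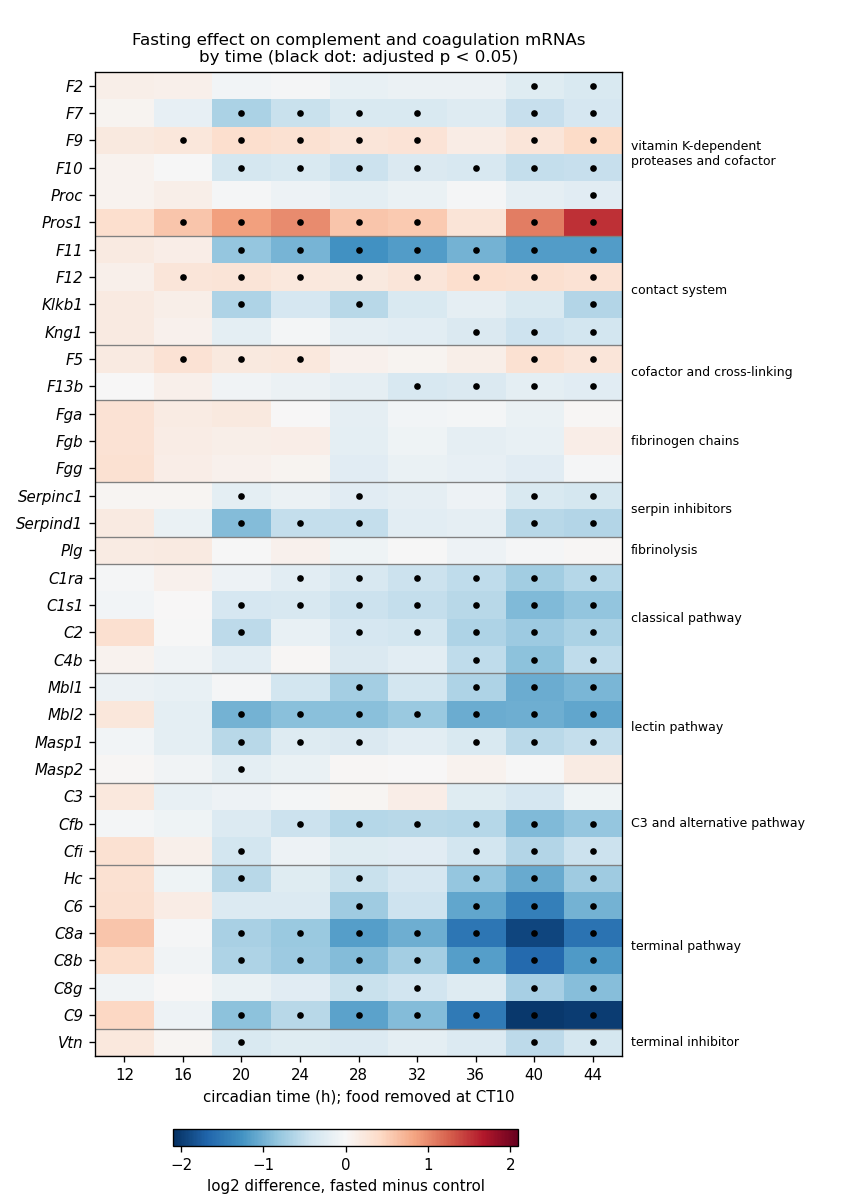
Each row is 1 of the 36 genes, grouped by role, and each column 1 of the 9 times from CT12 to CT44; colour gives the log2 difference, fasted minus control (4 mice a group), and a black dot marks an adjusted p under 0.05. The C9, C8a and C8b rows carry the deepest blue, down to -2.03 for C9 at CT40, Pros1, F9, F12 and F5 are red at all 9 times, and the fibrinogen rows have no dots.

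Of the groups of members, the terminal pathway had the lowest median. Its 6 members among these genes, Hc (the mouse gene of C5), C6, C8a, C8b, C8g and C9, all fell, with a median log2 difference of -0.64. The mean over CT12 to CT44 was -0.96 ± 0.070 (log2 ± SE) for C9, the component that lines the pore, and -0.90 ± 0.089 and -0.75 ± 0.065 for C8a and C8b, subunits of the component that first enters the membrane. Adjusted p was 2.1e-16, 4.32e-12 and 7.83e-14 in turn. The values of C6, which joins C5b at the start of assembly, and of Hc were -0.53 ± 0.061 and -0.45 ± 0.044. The smallest fall in the group was that of C8g, the lipocalin-like subunit bound to C8a, at -0.35 ± 0.044.

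C9 stood at 989 and 711 CPM in the control males and 238 and 239 CPM in the control females at CT40, against 235 and 209 CPM in the fasted males and 66.9 and 42.7 CPM in the fasted females. At that time the highest fasted library lay below the lowest control library, although the fasted males came close to the control females. C8a stood at 1281 and 991 CPM in the control males and 286 and 229 CPM in the control females at CT40, against 348 and 282 CPM in the fasted males and 89.2 and 40.3 CPM in the fasted females. C8b stood at 701 and 619.8 CPM in the control males and 212 and 169 CPM in the control females at CT40, against 211 and 158 CPM in the fasted males and 83.0 and 58.1 CPM in the fasted females. For both subunits the fasted males overlapped with the control females, while within each sex every fasted library lay below both control libraries. The log2 differences at CT40 were -2.03 ± 0.22 for C9, -1.92 ± 0.28 for C8a, -1.64 ± 0.20 for C8b and -1.43 ± 0.19 for C6. They were -1.87 ± 0.25, -1.67 ± 0.31, -1.51 ± 0.23 and -1.34 ± 0.21 in turn without fasted CT40 female 2, with adjusted p of at most 3.22e-05. Vtn, whose product blocks insertion of the terminal complex, fell too, by less, at -0.22 ± 0.038 in the mean of all times.

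The start regions of these genes are shown because C6, C8a, C8b and C9 fell the furthest of all members at CT40 and are those that differ most between the sexes. Each line gives 250 bases before to 50 after the gene start, 5′ to 3′ on the strand of the gene, from RefSeq on GRCm38.p6, in which 28 of the 36 members had an entry in 30 windows (Proc, Kng1, Plg, C2, C4b, Masp1, Cfb and Cfi had none). Capitals mark matches, on either strand, to the STAT motif TTCNNNGAA, the HNF1 half-site GTTAAT, the FOX motif TGTTTAC and the D-box TTATGNAA. An HNF1 match below means a match to this half-site and not to the full motif. Searches were also made for the HNF4 motif CAAAGTCCA and the E-box CACGTG.
C6, chr15:4726960-4727259, plus strand: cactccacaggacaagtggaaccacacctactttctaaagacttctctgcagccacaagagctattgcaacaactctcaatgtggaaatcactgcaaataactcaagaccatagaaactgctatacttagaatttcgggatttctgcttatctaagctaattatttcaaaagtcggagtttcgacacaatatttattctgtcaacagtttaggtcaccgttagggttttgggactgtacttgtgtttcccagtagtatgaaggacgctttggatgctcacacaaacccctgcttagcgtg
C8a, chr4:104876349-104876648, minus strand: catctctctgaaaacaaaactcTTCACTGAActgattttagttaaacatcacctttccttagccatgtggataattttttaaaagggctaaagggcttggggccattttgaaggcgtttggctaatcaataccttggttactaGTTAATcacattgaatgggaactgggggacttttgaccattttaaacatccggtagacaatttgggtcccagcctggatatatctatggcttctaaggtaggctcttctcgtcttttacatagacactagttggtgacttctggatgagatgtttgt
C8b, chr4:104766067-104766366, plus strand: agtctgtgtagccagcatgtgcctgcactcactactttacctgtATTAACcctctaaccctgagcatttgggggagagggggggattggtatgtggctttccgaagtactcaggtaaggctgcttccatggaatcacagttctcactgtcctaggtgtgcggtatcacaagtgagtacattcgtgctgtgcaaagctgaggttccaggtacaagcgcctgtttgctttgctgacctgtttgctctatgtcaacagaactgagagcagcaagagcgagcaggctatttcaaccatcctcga
C9, chr15:6445096-6445395, plus strand: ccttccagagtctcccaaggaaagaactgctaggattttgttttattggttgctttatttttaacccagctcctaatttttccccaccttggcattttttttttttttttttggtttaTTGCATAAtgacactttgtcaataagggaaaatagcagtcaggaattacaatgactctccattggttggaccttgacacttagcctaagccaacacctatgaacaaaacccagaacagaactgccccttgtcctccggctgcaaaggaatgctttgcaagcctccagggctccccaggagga

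C8a and C8b lie close to each other on chromosome 4 in opposite directions, at 104815679 to 104876398 and 104766317 to 104804548 (GENCODE M21, GRCm38). C6 and C9 both lie on chromosome 15. The window of C8a holds a STAT match starting at -228 and an HNF1 match at -107, counted from the gene start. An HNF1 match stands at -206 in C8b and a D-box at -132 in C9, and none of the motifs is found in the window of C6. A STAT match was found in 8.3% of 32851 promoter windows of the genome and in 26.7% of the 30 windows of members, and an HNF1 match in 7.1% and 30%. The D-box was in 3.38% of all windows and 2 of the 30, while 0 of the 30 held the E-box (7.15% of all) or the HNF4 motif (0.475%). A match is a run of letters and not a known binding site.

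**Figure D2:**
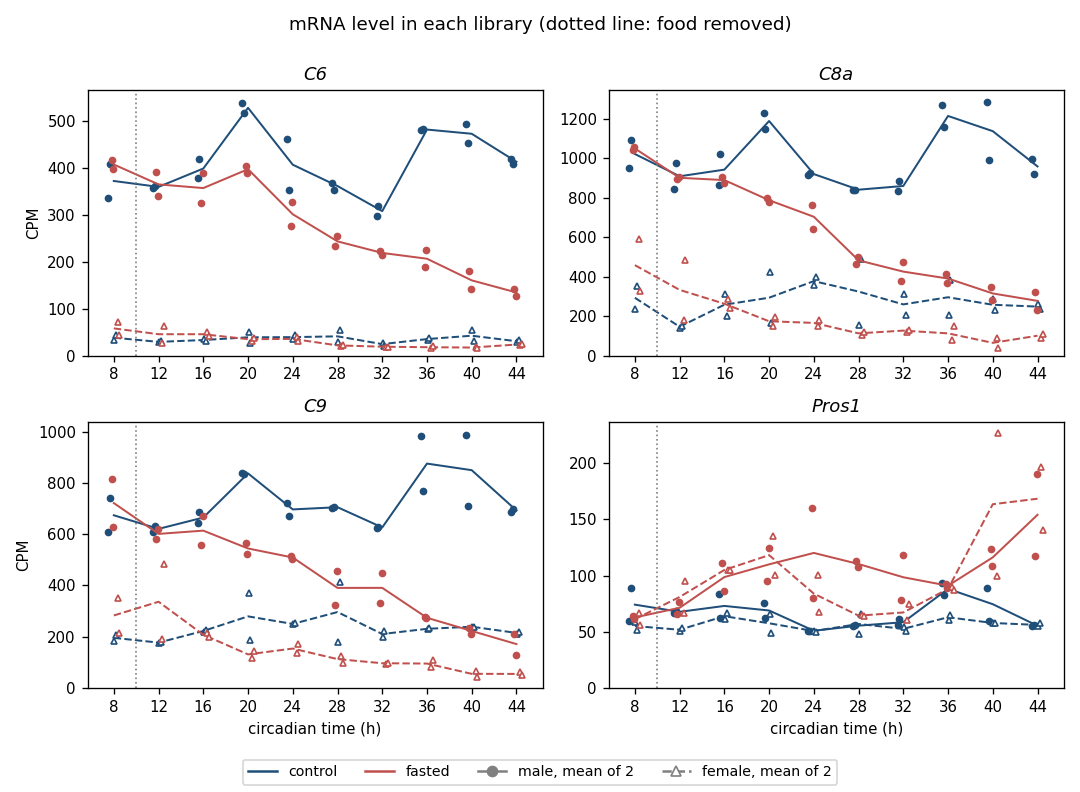
Points are single libraries of C6, C8a, C9 and Pros1 in CPM against circadian time, filled circles for males and open triangles for females; lines join the mean of the 2 mice of a sex, and the dotted line marks removal of food. Within a treatment, male and female values of C6, C8a and C9 stand apart at every time. Their fasted values sink over the course in both sexes. Fasted Pros1 rises to 118 and 191 CPM in the males at CT44 against 55.0 and 55.6 CPM in the control males.

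In the lectin pathway, 3 of 4 members fell. Mbl2 encodes one of the mannose-binding lectins that recognize microbial sugars, and fell by the most, -0.74 ± 0.054, with Mbl1, the other such lectin, at -0.49 ± 0.062. Masp1, a protease that these lectins carry, changed by -0.34 ± 0.034, and Masp2, the protease that cuts C4 and C2, had a log2 difference of -0.016 ± 0.027 with an adjusted p of 0.647. The gene Tardbp on the opposite strand overlaps 54.9% of the exon length of Masp2, and such overlaps cover 34.4% of Serpinc1, 18.4% of C1s1 and 11.3% of Plg; without the strand setting of the counting, the reads of such partners cannot be told apart. Mbl2 stood at 222 and 183 CPM in the control males and 390.3 and 364 CPM in the control females at CT40, against 151 and 143 CPM in the fasted males and 175 and 77.6 CPM in the fasted females. Every fasted library of Mbl2 lay below every control library at CT40, and the gap was wider in the females.

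All 4 members of the classical pathway fell. C1s1 and C1ra, the proteases of the first component, changed by -0.45 ± 0.038 and -0.32 ± 0.027, and C2 and C4b, which form the C3 convertase of this pathway, by -0.35 ± 0.040 and -0.29 ± 0.054. Reads of C4b may be shared with its near-identical copy C4a, whose counts reached 0.204% to 26.5% of those of C4b, and the sum of both rows fell by 0.35 ± 0.052. The sum of C2, Cfb and Gm20547 fell by 0.38 ± 0.035. Among C3 and the alternative pathway, Cfb, whose product forms the convertase with C3b, changed by -0.49 ± 0.048, and Cfi, the protease that inactivates C3b, by -0.22 ± 0.045. C3 was at 6049 to 15812 CPM with a median of 11545 in control and 7123 to 15075 CPM with a median of 9698 in fasted libraries, with ranges that overlap, and its log2 difference of -0.064 ± 0.051 had an adjusted p of 0.279.

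On the coagulation side the 4 rises were those of Pros1, F9, F12 and F5. Pros1 encodes protein S, the cofactor of activated protein C, and rose by 0.75 ± 0.063 on the log2 scale with an adjusted p of 2.14e-14. Pros1 stood at 55.0 and 55.6 CPM in the control males and 54.7 and 57.5 CPM in the control females at CT44, against 118 and 191 CPM in the fasted males and 197 and 140.2 CPM in the fasted females. The lowest fasted library was well above the highest control library. Fasted libraries also lay above all control libraries at CT20, CT24 and CT40, and at CT16 by little, with 86.2 against 83.5 CPM. At CT12, CT28, CT32 and CT36 the fasted and control libraries overlapped. F9, the protease that works with factor VIII, rose by 0.27 ± 0.028, F12, which starts the contact pathway, by 0.25 ± 0.023, and F5, the cofactor of the thrombin-forming enzyme, by 0.19 ± 0.023.

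F9 was measured at 203 and 206 CPM in the control males and 221 and 213 CPM in the control females at CT44, against 306 and 327 CPM in the fasted males and 233 and 261 CPM in the fasted females. F12 was measured at 511 and 464 CPM in the control males and 458 and 457 CPM in the control females at CT36, against 568 and 598 CPM in the fasted males and 639 and 599 CPM in the fasted females. F5 was measured at 955 and 911 CPM in the control males and 986 and 972 CPM in the control females at CT40, against 1206 and 1170.2 CPM in the fasted males and 1108 and 1293 CPM in the fasted females. In each of these cases all 4 fasted libraries exceeded all 4 control libraries. The differences of the 4 genes were above 0 at all 9 times, and passed the test at 7, 7, 8 and 5 of them for Pros1, F9, F12 and F5. Without fasted CT40 female 2, F9 had a log2 difference of 0.20 ± 0.092 at CT40 and did not pass there.

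F11 had the largest fall in coagulation. Its product, factor XI, is activated by factor XII and activates factor IX. F11 stood at 108 and 135 CPM in the control males and 102 and 88.1 CPM in the control females at CT28, against 51.2 and 57.2 CPM in the fasted males and 37.1 and 35.7 CPM in the fasted females. The 4 fasted libraries lay below the 4 control libraries at CT28 and at each time from CT24 to CT44. The mean log2 difference was -0.81 ± 0.056, with an adjusted p of 3.67e-17, and the largest was -1.28 ± 0.17 at CT28. Klkb1, which encodes the plasma prekallikrein of the contact system, lies close to F11 on the same strand of chromosome 8 and changed by -0.30 ± 0.060. Kng1, the kininogen that carries factor XI and prekallikrein, changed by -0.17 ± 0.029; its copy Kng2 had 10.2% to 19.4% of its counts.

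The start regions of F11 and Klkb1 are shown because the genes lie close together and have similar fitted peaks of their daily rhythm in control liver.
F11, chr8:45261982-45262281, minus strand: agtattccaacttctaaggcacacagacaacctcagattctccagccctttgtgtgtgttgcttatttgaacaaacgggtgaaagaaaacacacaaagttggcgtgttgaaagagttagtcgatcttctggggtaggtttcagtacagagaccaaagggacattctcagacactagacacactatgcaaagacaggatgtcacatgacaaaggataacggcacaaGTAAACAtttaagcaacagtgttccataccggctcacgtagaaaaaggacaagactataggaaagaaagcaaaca
Klkb1, chr8:45294786-45295085, minus strand: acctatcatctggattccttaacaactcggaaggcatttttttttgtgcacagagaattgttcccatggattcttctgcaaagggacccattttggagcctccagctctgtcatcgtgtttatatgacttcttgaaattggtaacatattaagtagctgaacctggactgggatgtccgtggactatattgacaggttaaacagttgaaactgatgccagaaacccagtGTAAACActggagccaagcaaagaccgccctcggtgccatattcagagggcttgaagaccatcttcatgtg

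Both windows hold the FOX motif TGTTTAC, which starts at -25 in F11 and at -21 in Klkb1, and hold none of the other motifs searched. It was in 3.65% of all promoter windows and 6.67% of those of members, so that these 2 are the only member windows with it. Exons of a predicted gene, Gm45753, cover 43.2% of the exon length of Klkb1, and that gene had at most 4 counts in a library.

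Among the other proteases dependent on vitamin K, falls were smaller. F7, which pairs with tissue factor, changed by -0.33 ± 0.036, F10, the protease that makes thrombin, by -0.30 ± 0.030, F2, prothrombin itself, by -0.093 ± 0.022, and Proc, the gene of protein C, by -0.080 ± 0.027. Values of F2 ran from 1595 to 1842 CPM with a median of 1696 in control and from 1303 to 2085 CPM with a median of 1577 in fasted libraries, so that the control range lies inside the fasted one. The falls of F2 and Proc did not pass the test in males alone, with adjusted p of 0.233 and 0.878, nor did those of Klkb1, Kng1, F13b and Serpinc1. F13b, the carrier subunit of the fibrin cross-linking enzyme, changed by -0.15 ± 0.028. Of the inhibitors, Serpind1 (heparin cofactor II) changed by -0.39 ± 0.048 and Serpinc1 (antithrombin) by -0.16 ± 0.025.

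Fibrinogen and plasminogen stood apart from these. For Fga, Fgb and Fgg, the 3 chains of fibrinogen, the mean log2 differences were 0.031 ± 0.063, 0.029 ± 0.060 and -0.023 ± 0.062, and for Plg 0.028 ± 0.032. In the mean, edgeR, limma and DESeq2 called 0 of the 3 chains, and 0 had an unadjusted p under 0.05. At the single times, the lowest adjusted p of a chain was 0.333. Per length, Fgb was 0.776 ± 0.0533 (SD, n = 36) of Fga in control and 0.773 ± 0.0636 in fasted libraries, and Fgg 0.970 ± 0.0471 and 0.934 ± 0.0565. The ratio of C8g to C8a, subunits of 1 protein, was less even, at 0.643 ± 0.138 in control males (n = 18), 1.08 ± 0.368 in fasted males, 2.41 ± 0.996 in control females and 3.0 ± 1.02 in fasted females.

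The fibrinogen genes form a cluster on chromosome 3, and their start regions are shown because the 3 chains had nearly the same ratio in both treatments.
Fga, chr3:83025903-83026202, plus strand: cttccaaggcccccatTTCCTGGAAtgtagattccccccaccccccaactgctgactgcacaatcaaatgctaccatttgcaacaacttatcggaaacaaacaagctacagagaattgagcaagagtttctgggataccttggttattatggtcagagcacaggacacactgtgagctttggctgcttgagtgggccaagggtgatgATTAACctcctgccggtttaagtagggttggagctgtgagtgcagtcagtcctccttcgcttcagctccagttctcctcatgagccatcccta
Fgb, chr3:83049814-83050113, minus strand: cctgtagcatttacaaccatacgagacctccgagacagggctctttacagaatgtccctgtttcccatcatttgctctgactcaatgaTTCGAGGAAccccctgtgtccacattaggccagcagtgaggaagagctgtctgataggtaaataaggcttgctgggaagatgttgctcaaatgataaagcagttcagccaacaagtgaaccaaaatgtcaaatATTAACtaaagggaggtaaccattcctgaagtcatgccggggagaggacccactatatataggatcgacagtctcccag
Fgg, chr3:83007474-83007773, plus strand: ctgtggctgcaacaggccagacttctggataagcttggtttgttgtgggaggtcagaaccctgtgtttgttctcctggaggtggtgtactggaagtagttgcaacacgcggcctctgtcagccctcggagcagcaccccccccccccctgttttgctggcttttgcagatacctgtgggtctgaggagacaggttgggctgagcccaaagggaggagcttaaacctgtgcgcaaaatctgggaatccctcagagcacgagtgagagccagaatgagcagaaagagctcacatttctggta

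The windows of Fga and Fgb hold a STAT match each, at -234 and -162, and an HNF1 match each, at -43 and -29. That of Fgg holds none of the motifs searched.

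The fall deepened over the course of the fast. At CT8, before food was removed, 0 of 36 members passed the edgeR test, against 1.33% of all genes. Of the members, 4 had an unadjusted p under 0.05 in that test, and limma called 0 and DESeq2 2. The log2 difference was above 0 in 32 of the 36, with a median of 0.11. Control CT8 female 2, the lowest of its group in 29 of the 36 genes, is on the control side here. Without it 0 members passed as well, and its part in these positive differences was not tested. At CT12, 2 h into the fast, 0 members passed in either direction, at a background of 0.684% of genes lower; 0 were lower and 8 higher at an unadjusted p under 0.05, and limma and DESeq2 called 0. At CT16, 0 members were lower by any of the 3 tools or at an unadjusted p under 0.05. There edgeR called 11.9% of all genes lower, and Pros1, F9, F12 and F5 higher. The share of all genes higher was not counted at CT12 or CT16. Neither these rises nor the 8 at CT12 can thus be set against a background.

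From CT20 on, falls were called at every time. The counts of members that fell, each beside the share of all genes that fell, were 17 at CT20 (19.1%), 12 at CT24 (11.9%), 19 at CT28 (11.1%) and 13 at CT32 (9.3%). Later they were 18 at CT36 (14%), 24 at CT40 (21.2%) and 26 at CT44 (20.7%). Over the 9 times and 36 members this makes 129 falls, and 69 to 133 when a replicate number of 1 sex was left out. Without fasted CT40 female 2, 23 members fell at CT40, with F13b lost, and the log2 difference of Klkb1 at that time, -0.32 ± 0.18 with it, was 0.022 ± 0.13, neither of which passed the test.

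A contrast chosen after the values had been seen set the fasting effect at CT36 to CT44 against that at CT12 to CT20, which cover the same phases of the day 24 h apart. By this contrast 22 of 36 members lay lower late than early, against 11.3% of all genes, and 15 of the 22 were complement genes. In the other direction edgeR called 0, limma 0 and DESeq2 2, with 3 members at an unadjusted p under 0.05. Without fasted CT40 female 2, 21 were lower, with Proc lost, and 1, Masp2, was higher. Under each of the 13 alternatives tried, 13 of the 22 calls held. The late minus early difference was -1.66 ± 0.17 for C9, -1.62 ± 0.22 for C8a, -1.24 ± 0.15 for C6 and -0.95 ± 0.14 for F11. The early times include CT12, when the log2 difference of 30 of the 36 members was above 0. The median of the terminal pathway was then 0.35. Late minus early differences thus also take in these positive early values, and not the late fall alone. Mbl2 and F11 were already low at CT20, at -0.99 ± 0.16 and -0.81 ± 0.17, whereas C6 had -0.28 ± 0.18 at CT20 and -1.10 ± 0.18 at CT36. Between CT36 and CT44 the Kupffer markers summed to 172 to 600.2 CPM in control and 107 to 222 CPM in fasted libraries, and the 5 markers of blood cells to 40.9 to 129 and 30.2 to 59.9 CPM; their part in the late fall was not tested.

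For C6, C8a, C8b and C9, the difference between the sexes in control liver was larger in size than the mean effect of fasting. In control mice 16 members were lower and 7 higher in females than in males over the 10 times, when 18.6% and 20.6% of all genes were, so the share that was higher lies near its background. All 6 terminal members were lower in females, with a median log2 difference, female minus male, of -1.60. C6 ranged over 21.2 to 54.3 CPM with a median of 32.8 in 20 control females and over 297 to 540.0 CPM with a median of 408 in 20 control males, a log2 difference of -3.54 ± 0.089. C9 ranged over 174 to 414 CPM with a median of 220.4 in females and 607 to 989 CPM with a median of 701 in males. For C6 and C9 the sexes did not overlap in control liver.

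C8a ranged over 142 to 491 CPM with a median of 248 in control females and 835 to 1281 CPM with a median of 961 in control males, and C8b over 122 to 296 CPM with a median of 178 and 394 to 701 CPM with a median of 539. The log2 differences were -1.88 ± 0.12 for C8a, -1.65 ± 0.095 for C9 and -1.54 ± 0.089 for C8b, far beyond those of Hc at -0.55 ± 0.059 and C8g at -0.16 ± 0.059. At each of the 10 times, and in both treatments, the 2 females had less C6, C8a, C8b and C9 than the 2 males of the same treatment.

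**Figure D3:**
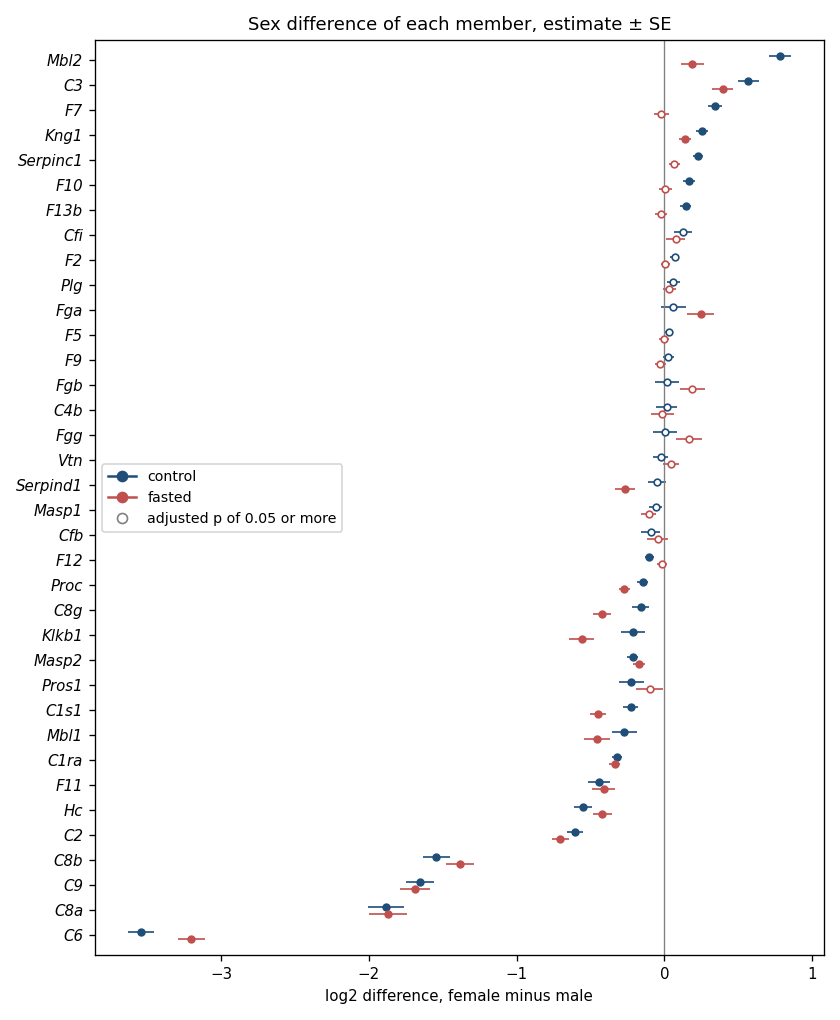
For each gene, the estimate ± SE of the log2 difference, female minus male, in control (blue, 10 times) and fasted liver (red, CT12 to CT44); open points did not pass the test. C6, C8a, C9 and C8b lie far to the left in both treatments, from -3.54 to -1.54 in control. Farthest to the right in control liver are Mbl2 and C3.

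Elsewhere in complement, C2 was lower in females, -0.61 ± 0.053, as were C1ra at -0.32 ± 0.036 and C1s1 at -0.23 ± 0.051, whereas Mbl2 was higher, 0.78 ± 0.073, and C3 too, 0.57 ± 0.068. Mbl1 and Masp2 were lower, -0.27 ± 0.083 and -0.21 ± 0.037. C4b had a difference of 0.016 ± 0.073 with an adjusted p of 0.906, and its sum with C4a one of -0.16 ± 0.070, with an adjusted p of 0.0716 in the same edgeR test. In coagulation, differences were smaller and went both ways, 5 of 18 higher and 5 lower. F7, Kng1, Serpinc1, F10 and F13b were higher in females, from 0.15 to 0.34, and F11, Pros1, Klkb1, Proc and F12 lower, from -0.44 to -0.10.

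Markers of other cells differed between control females and males as well: all 5 of Kupffer cells and all 5 of sinusoidal endothelium were higher in females, 3 of 4 of stellate cells were higher, 2 of 4 of bile duct were higher and 1 lower, and 3 of 5 of blood cells were lower. Of the 6 hepatocyte markers 1 was higher and 2 were lower. Their part in these differences was not tested. Without control CT8 female 2, the library rich in ribosomal counts, 8 members were higher and 14 lower, with F2 gained (0.090 on the log2 scale) and Klkb1 and C8g lost (-0.19 and -0.14). Of the 23 calls, 15 held under every alternative tried. That of Pros1 was lost in 6 of 14 alternatives, and those of Klkb1 and C8g in 5 of 14. In fasted mice from CT12 to CT44, 15 members were lower and 4 higher in females, at backgrounds of 19% and 19%. Those higher were C3, Fga, Mbl2 and Kng1, from 0.14 to 0.40, and 14 of these 19 calls held under every alternative tried. C6 differed by -3.20 ± 0.093, C8a by -1.87 ± 0.13, C9 by -1.69 ± 0.10 and C8b by -1.38 ± 0.094.

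Whether fasting acted unequally on the sexes was tested directly, as the fasting effect in females minus that in males. It passed for 9 of 36 members, against 12.4% of all genes; 8 of the 9 fell further in females. The largest was Mbl2, which changed by -1.05 ± 0.077 in females and -0.42 ± 0.076 in males, a difference of -0.63 ± 0.11 with an adjusted p of 0.00011. Mbl2 stood at 248 and 189 CPM in the control males and 475 and 382 CPM in the control females at CT20, against 157 and 145 CPM in the fasted males and 140.4 and 172 CPM in the fasted females. The control females exceeded the control males at CT20, and the fasted libraries of both sexes lay together, with the sex difference of 0.78 ± 0.073 in control mice standing at 0.19 ± 0.076 in fasted ones.

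F7 differed in the same direction, with -0.53 ± 0.051 in females and -0.13 ± 0.051 in males and a difference of -0.40 ± 0.072. F7 stood at 95.3 and 97.2 CPM in the control males and 141 and 129 CPM in the control females at CT20, against 71.6 and 72.9 CPM in the fasted males and 65.3 and 78.4 CPM in the fasted females. Fasted libraries of both sexes again lay below all control libraries at this time, and the drop from control was larger in the females. Klkb1 differed by -0.38 ± 0.12, and at CT44 its fasted females, at 71.5 and 87.3 CPM, were below its fasted males, at 122 and 94.2 CPM, with 134 and 138 CPM in control females and 141 and 155 CPM in control males.

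C6 was the exception, with a deeper fall in males, -0.72 ± 0.086 against -0.35 ± 0.086 in females, a difference of 0.37 ± 0.12. C6 stood at 494 and 453 CPM in the control males and 53.8 and 31.2 CPM in the control females at CT40, against 179.7 and 141 CPM in the fasted males and 19.2 and 15.2 CPM in the fasted females. Fasted libraries of each sex were below the control libraries of that sex, and the 2 sexes remained apart. C8g, C1s1, Serpinc1, F10 and F13b made up the 9, with differences of -0.29 to -0.18. These calls rest on few mice, since leaving out 1 replicate number of 1 sex left 1 to 9 members called lower and 0 or 1 higher, and only Mbl2 of the 9 passed under all 13 alternatives tried. Without fasted CT40 female 2, 7 members fell further in females, with C1s1 lost at -0.18 ± 0.064, and Klkb1 differed by -0.31 ± 0.082. For C9 and C8a, the differences were -0.052 ± 0.14 and 0.022 ± 0.18, with adjusted p of 0.901 and 1.

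**Figure D4:**
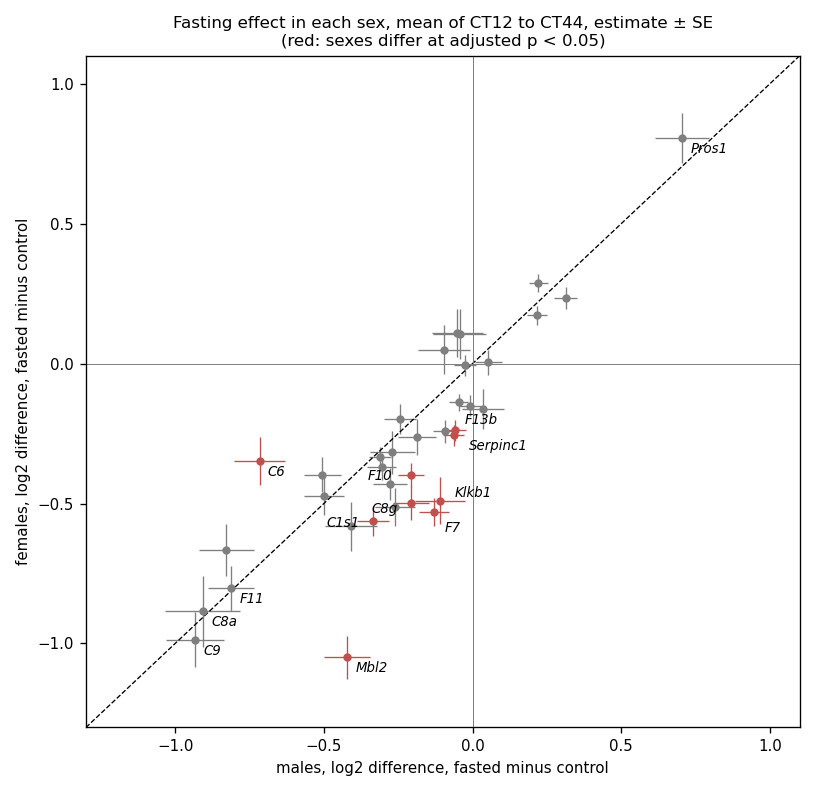
Each point is 1 gene, with the log2 difference (fasted minus control) of males on the horizontal and of females on the vertical axis, estimate ± SE, mean of CT12 to CT44; the dashed line marks equal effects and red points passed the test of the difference. C6 lies above the line and the other 8 red points below it, Mbl2 farthest.

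Daily rhythms were found in part of the members and mostly not in the terminal pathway. In control liver 14 of 36 members had a 24 h rhythm, against a background of 45.4% of the genes tested. The share of members does not exceed that background. The count of members was 11 to 17 when a replicate number of 1 sex was left out and 16 without control CT8 female 2. Of the 14 calls, 9 held under every alternative tried. The strongest was that of Fga, with a peak-to-trough log2 difference of 0.69 and a fitted peak at CT1.19 (adjusted p 7.35e-05). Fgg and Fgb followed with 0.63 and 0.50, and peaks at CT0.777 and CT1.24, close to that of Fga. At CT12 Fga stood at 2407 and 2981 CPM in control males and 2565 and 2936 CPM in control females, and at CT24 at 4416 and 3956 CPM in the males and 6641 and 5130.4 CPM in the females. Fgg stood at 1699 and 1909 CPM in the males and 1652 and 1966 CPM in the females at CT12, and at 2819 and 2650.0 and then 4150.3 and 3346 CPM at CT24. All 4 libraries of both chains were higher at CT24 than at CT12. At CT36, the same phase as CT12 a day later, control Fga ran from 2816 to 4397 CPM and control Fgg from 1854 to 3361 CPM. Both of these ranges overlapped with those of CT24.

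F11 and Klkb1 peaked about midway through the subjective day, at CT5.88 and CT5.21, with 0.58 and 0.56 from trough to peak. At CT32, F11 was at 135 and 111 CPM in control males and 112 and 93.9 CPM in control females. At CT40 it was at 72 and 82.6 CPM in the males and 71.0 and 54.5 CPM in the females, without overlap. The same phases a day earlier, CT8 and CT16, did overlap, with 67.6 to 129 CPM and 49.4 to 86.1 CPM. Mbl1 peaked at CT23, with 0.57, and stood at 146 and 129 CPM in the males and 91.9 and 126 CPM in the females at CT12. At CT24 it was at 226 and 219 CPM in the males and 185 and 196 CPM in the females, all above the values of CT12. The other rhythms, those of Pros1, C2, Cfb, Masp1, Masp2, F9, F5 and Serpind1, had 0.20 to 0.37 from trough to peak. In the 6 terminal members the edgeR test gave adjusted p from 0.15 to 0.577. Without the second female replicates, C6, C8b and C9 passed.

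**Figure D5:**
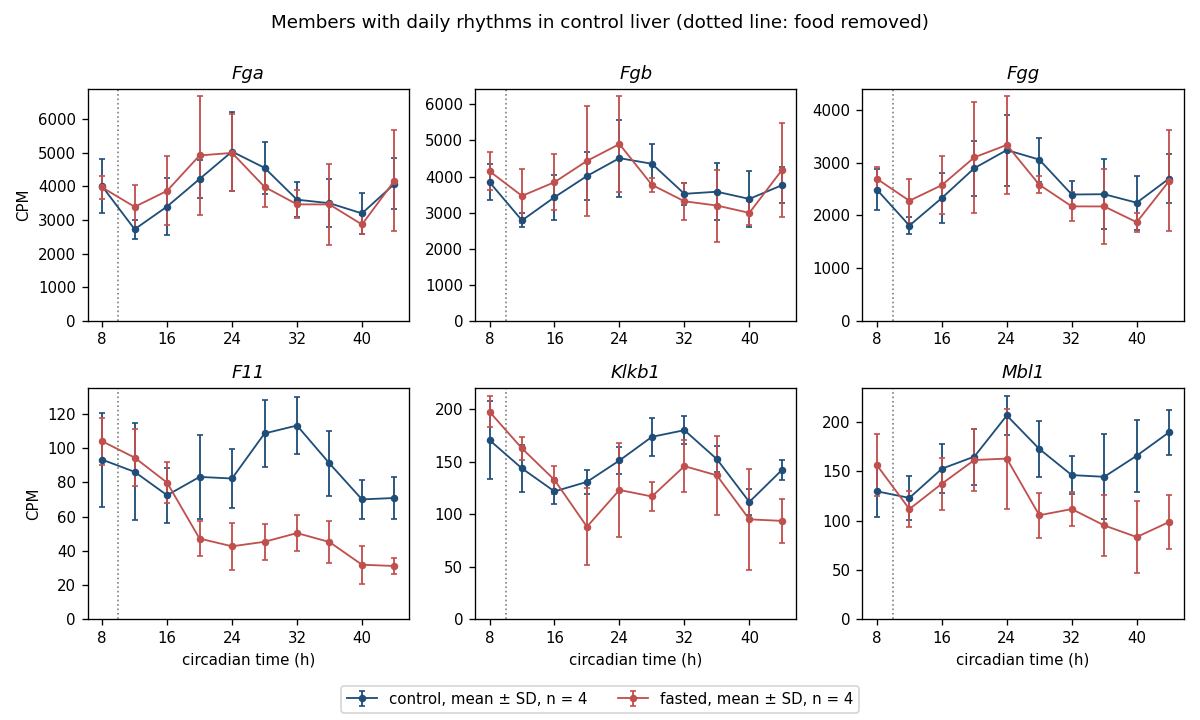
Means ± SD of 4 libraries in CPM against circadian time for the fibrinogen chains, F11, Klkb1 and Mbl1, in control (blue) and fasted liver (red); the dotted line marks removal of food. The 3 fibrinogen chains trace similar curves, highest at CT24 in control liver, and F11 stays at 31.2 ± 4.93 CPM in fasted against 70.8 ± 12.5 CPM in control liver at CT44.

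Once a linear change over the fast was allowed for, fasted liver had rhythms in 18 of 36 members. Of all genes tested 50.8% had one, so the share of members lies near that background. Rhythms of members numbered 21 without fasted CT40 female 2, with Kng1, C1ra and C6 added. Of the 18 calls, 9 held under every alternative tried. The fibrinogen chains kept theirs, with 0.59, 0.56 and 0.60 for Fga, Fgb and Fgg and peaks at CT23.7, CT23.3 and CT23.6. In a direct test over 72 libraries, the rhythm of 6 members differed between fasted and control liver, against 25.5% of the genes tested. It differed for 9 without fasted CT40 female 2, with F10, Proc and Mbl2 added. The fitted peak of F11 was at CT6 in control and CT11.3 in fasted mice, that of Klkb1 at CT5.26 and CT8.82, that of Pros1 at CT14.2 and CT19.5, and that of Serpind1 at CT3.04 and CT9.32. F5 and F7 also passed. F11 and Serpind1 did so under every alternative tried, and the other 4 lost the call in at least 1. Since the fasted libraries span little more than 1 cycle, a curved course of the fast and a change of rhythm cannot be told apart here.

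Other genes of the same pathways, from lists chosen with earlier results known, were counted in the same tests. In the mean of CT12 to CT44, 32.9% of all genes tested fell and 29.5% rose. Of 26 further complement genes tested, 18 fell and 2 rose in that mean, with a median log2 difference of -0.20. C4a fell by the most, -1.15 ± 0.10, and C5ar1, the receptor for the anaphylatoxin made from C5, rose by 0.54 ± 0.11. Of 24 further coagulation genes 11 fell and 5 rose, with a median of -0.13. Serpina5, the protein C inhibitor, changed by -2.53 ± 0.55, Ggcx, the enzyme that carboxylates the vitamin K-dependent factors, by -0.80 ± 0.049, and Serpina10, the inhibitor that acts with protein Z, by -0.69 ± 0.044. Among the rises were Thbd (thrombomodulin) at 0.80 ± 0.098 and Plaur, the urokinase receptor, at 0.67 ± 0.13.

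Between the sexes, in control liver, 9 of these 26 complement genes were lower and 11 higher in females, and of the 24 coagulation genes 4 and 4. Over all genes tested, 18.6% were lower and 20.6% higher, so the coagulation counts lie near their background. The largest differences were those of Cfd (factor D, a protease of the alternative pathway) at -6.26 ± 0.95, C4a at -5.04 ± 0.15 and Serpina5 at -2.20 ± 0.30. Higher in females were Cfp (properdin) at 0.81 ± 0.083, Vsig4, a complement receptor of Kupffer cells, at 0.70 ± 0.077 and Colec10, a lectin of the same pathway as Mbl1, at 0.62 ± 0.046. C7, the terminal component that is not among the 36 genes, was lower in females as well, at -0.73 ± 0.14, and had a fasting effect of 0.080 ± 0.11 with an adjusted p of 0.542; it is named here after its values were seen.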

How the data were processed

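The authors deposited raw gene counts, as whole numbers that had not been normalized, with 1 column per mouse. The submitters' processing notes name Trimmomatic, HISAT2, DESeq2 and the build GRCm39; versions and the counter are not given in the sources used here. Libraries were stranded, but the strand setting of the counting is not given. The article is a review without methods, and the normalized and exon tables were not used. Counts were filtered (filterByExpr), scaled by TMM and fitted in edgeR 4.0.16 (R 4.3.3) by the quasi-likelihood method with 1 mean per treatment, time and sex over all 80 libraries. Errors of log2 differences are SE, obtained as the size of the difference divided by the square root of its F statistic. Rhythm tests used a cosine and a sine of 24 h with sex, over 40 control, 36 fasted or 72 libraries, with linear time for the last 2. Calls were made at a Benjamini-Hochberg adjusted p under 0.05, over all genes tested. Members, lists and tests were chosen with earlier results of these data known. Values per library at single times are given for the 4 largest called rises and falls with fasting and the 4 largest called differences by sex, by sex of the fasting effect and by rhythm. The other pathway genes named are the 4 largest rises and falls and the 3 largest sex differences each way; 1 gene that this rule names is not reported here. Levels per kb use exon unions of GENCODE M21, whose positions are on GRCm38, an older build than that of the notes. In 40 pairs of replicates the chi-square of their counts was at least 14.8 per degree of freedom, so that each library was counted as a sample of its own. The scripts were tested on simulated data. Alternatives were limma 3.58.1, DESeq2 1.42.0, other scalings and filters, single sexes, a replicate block, and leaving out replicates, times or either of the 2 libraries that stand apart. Mice were group-housed and it is not given which shared a cage, so p-values measure the spread between single mice.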

Additional observations from a re-analysis of the deposited data

Results flagged for a closer look

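Among the 4 libraries of fasted CT20, female 2 held 5.01% of its counts in the 36 genes against 3.40% to 3.59% in the other 3, a gap of 0.885 of the whole range of the group. Fga was 4200.0 and 7557 CPM in the 2 females of that group. F12 stood at 511 CPM in control CT36 male 1 against 457 to 464 CPM in the other 3 libraries, a gap of 0.873 of the range. Both exceed Dixon's limit for 4 samples. Of the 36 groups examined, chance alone gives such a gap in about 1 in 20.

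The fasting effect differed between the sexes (females minus males, log2) by -0.40 for F7, -0.19 for F10, -0.38 for Klkb1, -0.18 for F13b, -0.19 for Serpinc1, -0.23 for C1s1, -0.63 for Mbl2, 0.37 for C6 and -0.29 for C8g.

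Between CT36 to CT44 and CT12 to CT20 it differed, on the log2 scale, by -0.29 for F2, -0.33 for F10, -0.21 for Proc, -0.95 for F11, -0.40 for Kng1, -0.26 for F13b and -0.22 for Serpinc1. In complement the differences were -0.61 for C1ra, -0.65 for C1s1, -0.62 for C2, -0.57 for C4b, -0.78 for Mbl1, -0.73 for Mbl2, -0.64 for Cfb, -0.49 for Cfi, -0.75 for Hc, -1.24 for C6, -1.62 for C8a, -1.21 for C8b, -0.55 for C8g, -1.66 for C9 and -0.38 for Vtn.

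The daily rhythm differed between fasted and control liver in the test of the cosine and sine terms. The distance between the 2 fitted rhythms was 0.37 for F7, 0.79 for Pros1, 0.80 for F11, 0.56 for Klkb1, 0.22 for F5 and 0.67 for Serpind1. It is on the peak-to-trough log2 scale and takes in shifts of peak time as well as of size. F11 had 0.64 from trough to peak in control and 0.62 in fasted liver, with fitted peaks at CT6 and CT11.3.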

How the results depend on the processing

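The mean fasting effect kept 4 rises under every change of tool, scaling, filter or replicate, and 24 to 26 falls when a replicate number of 1 sex was left out. Of its 30 calls, 24 held under every alternative tried, 25 or more for each member. The 6 others were lost in at least 1: F2, Proc, Klkb1, Kng1, F13b and Serpinc1. No called result changed direction under the alternatives run.

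By DESeq2 2 members were higher at CT8, and 2 were higher late than early in the fast. Without a filter on low counts 5 members fell further in females, 12 calls at single times were rises and 1 member was higher late than early. That last count was 1 also with DESeq2's size factors, with upper quartile scaling, with at least 10 counts in every library and without control CT8 female replicate 2 or fasted CT40 female replicate 2. Rhythms in control liver with a peak at least 1.5 times the trough numbered 2. The causes were not tested.

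Leaving out a replicate number of 1 sex gave 0 to 5 members higher at CT8, 0 to 1 and 1 to 9 with a fasting effect higher or lower in females, and 10 to 15 lower in control females. It gave 1 to 4 higher in fasted females, 6 to 24 rises and 69 to 133 falls at single times, 3 to 7 different rhythms, and 0 to 1 members higher late than early. Without control CT8 female replicate 2, rhythms in control liver numbered 16, with F7 and F13b added. Leaving out fasted CT40 female replicate 2, an alternative chosen after seeing the data, gave 135 falls at single times, 21 rhythms in fasted liver and 9 different ones. Held under every alternative tried were 1 of 9 calls of the sex test, 15 of 23 in control and 14 of 19 in fasted females, 13 of 22 late against early, and 9 of 14, 9 of 18 and 2 of 6 of the rhythm tests.

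Replicate numbers do not pair the mice: deviations of same-numbered mice had correlations of -0.156 to 0.527 in 20 pairs, 5 of them over 0.1. With a replicate block, the mean fasting effect had 4 rises and 26 falls, single times 27 and 128, the sex test 1 and 8, control females 7 higher and 16 lower, fasted females 3 and 15, and the rhythm tests 14, 18 and 6.

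With 2 mice of a sex per treatment and time, single times by sex were not tested. Low rows (Cfb, C2) and shared rows (C4b, Kng1) limit what was measured there.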
